A study of Saccharomyces cerevisiae with 6 samples.

Results

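The genes of sulphate assimilation and sulphur amino acid synthesis of *Saccharomyces cerevisiae* were followed across 3 culture conditions. The set holds 36 genes chosen by name for their known place in the pathway, out of 5449 genes with a probe set on the array. The choice was made with earlier results of these data known, so shares set beside those of all probe sets are a description. All 36 were measured, each by 1 probe set, and all 36 lay above background on the 6 arrays. That mark is a low one, since 98.8% to 99.2% of all *S. cerevisiae* probe sets passed it on each array. They fall into 5 steps: uptake (7 genes), sulphate reduction and sulphide incorporation (10), transsulphuration (4), the methyl cycle (9) and regulators (6).

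Total RNA of the haploid MATα laboratory strain BY4742 was hybridised to GeneChip Yeast Genome 2.0 arrays, 2 arrays for each group. The first group had received nystatin at 0.27 mg/L together with cadmium sulphide quantum dots (CdS QDs) at 100 mg/L, the second nystatin at 0.27 mg/L alone, and the third neither agent (untreated control). Cells grew for 24 h in rich YPD medium at 30 °C and were then moved to medium with or without the agents for a further 24 h. Nystatin binds ergosterol and opens pores in the fungal membrane, and the study used it at a sub-inhibitory dose to let the particles in; its methods give a slightly lower dose than the labels. No group received CdS QDs without nystatin, so the comparison of nystatin + CdS QDs with nystatin is the one that differs by the particles alone.

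BY4742 carries deletions of *HIS3*, *LEU2*, *LYS2* and *URA3* but has an intact *MET17*, unlike its MATa sister strain, so it can make its own methionine. On the arrays *LYS2* and *URA3* were below background on all 6 and *MET17* was above it on all 6, while *LEU2* passed on 4. The α-specific genes *MF(ALPHA)1*, *MF(ALPHA)2* and *STE3* were above background on all 6 arrays, and so were the a-specific genes *MFA1*, *MFA2* and *STE2*, which lay between 3.63 and 5.79. The 2 arrays of a group correlated with r between 0.998 and 0.999 over all probe sets of *S. cerevisiae*, and this small number of arrays sets the precision of what follows. According to the methods the 2 arrays of a condition were aliquots of RNA extract, so p-values measure only the spread between these arrays, which may be technical.

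Yeast takes up sulphate through dedicated permeases, activates it with ATP, reduces it to sulphide and joins the sulphide to a homoserine ester to give homocysteine. Homocysteine then flows to cysteine and glutathione through transsulphuration, or to methionine and S-adenosylmethionine, the donor of methyl groups. The pathway is controlled by the activator Met4, which reaches DNA through Cbf1, Met28, Met31 and Met32 and is held in check by the ubiquitin ligase that contains Met30. Cadmium binds thiols, and the pathway feeds the synthesis of glutathione, the main small thiol of the yeast cell.

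With nystatin + CdS QDs, 22 of the 36 sulphur genes rose against the untreated control, 9 fell and 5 did not pass the test. Rose and fell stand here for an adjusted p under 0.05 (limma, two-sided, Benjamini-Hochberg over 5498 probe sets). In this comparison 36.5% of all probe sets rose and 38.9% fell, so a call by itself was common (75.4% in either direction, against 86.1% of the sulphur genes), and 14 of the 31 sulphur genes called had a log2 fold change under 0.5 in size. The share that rose was 61.1% of the sulphur genes and the share that fell 25.0%. Their median log2 fold change was 0.28, against −0.01 over all probe sets. The arrays of the 2 groups did not overlap for 33 of the 36, against 87.5% of all probe sets.

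The large changes were few and nearly all upward. By the thresholds of the study, 1 log2 unit or more with a p below 0.01 before adjustment, 6 sulphur genes were higher (*SUL2*, *SAM1*, *MET32*, *CYS3*, *MET17* and *MET3*) and 1 was lower (*CBF1*). *MET3* only just passed, at 1.001, and its lowest value with 1 array left out was 0.990. Of all probe sets, 4.95% were higher and 5.15% lower by the same rule. Each of the 5 steps holds at least 1 of these 7 genes. Among all 5498 probe sets ordered by log2 fold change, *SUL2* stood at rank 6 from the top, *SAM1* at 26, *MET32* at 30, *CYS3* at 38 and *MET17* at 40. The study had picked *CYS3*, *MET17*, *MET32*, *SAM1* and *SUL2* on these same arrays, so their rise is not independent evidence of a direction. RNA from the nystatin + CdS QDs arrays had a larger difference between 3′ and 5′ probe signal over 7 control genes, 1.58 and 1.58 on the log2 scale, against 1.45 and 1.45 for nystatin and 1.47 and 1.41 for the untreated control; its part in the results was not tested.

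**Figure D1:**
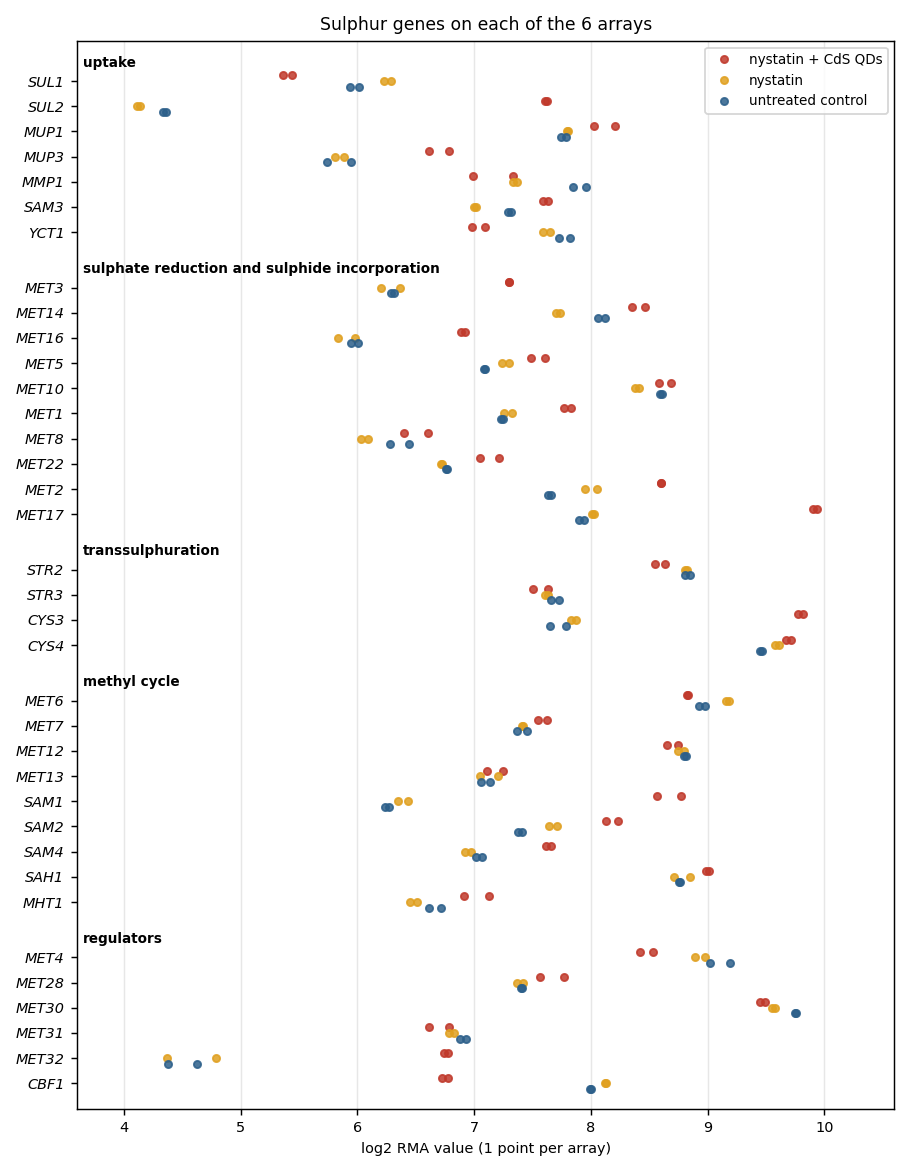
The log2 RMA value (horizontal axis) of each of the 36 sulphur genes, 1 point for each of the 6 arrays, coloured by group and ordered by step. The nystatin + CdS QDs points stand well apart to the right for *SUL2*, *MET17*, *CYS3*, *SAM1* and *MET32* and to the left for *CBF1*, while the nystatin and untreated control points lie close together. Values of different genes come from different probes and are not to be compared along the axis.

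Against nystatin alone, more sulphur genes were again higher than lower with nystatin + CdS QDs. There were 23 genes that rose and 6 that fell, and the other 7 did not pass. In this comparison 36.7% of all probe sets rose and 38.3% fell, 75% being called in either direction, against 80.6% of the sulphur genes. The median log2 fold change was 0.30, against −0.01 over all probe sets. *SUL2*, *SAM1*, *MET32*, *CYS3*, *MET17* and *MET3* were higher and *CBF1* lower at the thresholds of the study, a rule that 4.87% of all probe sets passed upward and 4.66% downward. Here too *MET3* was close to the threshold, at 1.02, and its lowest value with 1 array left out was 0.935. Arrays of the groups did not overlap for 33 genes, against 87.4% of all probe sets. Both comparisons share the nystatin + CdS QDs arrays, so they are not independent of each other.

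Nystatin alone moved the sulphur genes little. Against the untreated control 4 rose, 7 fell and 25 did not pass (limma, adjusted p under 0.05), where 10.4% of all probe sets rose and 11.4% fell. The 11 calls made 30.6% of the sulphur genes, against 21.8% of all probe sets, and arrays of the groups did not overlap for 27 genes, against 70.1% of all probe sets. The median log2 fold change was −0.01, and 35 of the 36 genes changed by less than 0.5 in size. No gene reached the thresholds of the study, which 0.0364% of all probe sets passed upward and 0.0728% downward. At an unadjusted p under 0.05, 7 sulphur genes were higher and 10 lower, where 18.3% of all probe sets were higher and 19.6% lower. None of the 11 calls held under every alternative. Without either untreated control array 0 genes rose and 0 fell, without nystatin replicate 1 the counts were 1 and 2, without nystatin replicate 2 they were 1 and 0, and without either nystatin + CdS QDs array they were 7 and 8. The calls given for nystatin alone in what follows carry this limit.

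**Figure D2:**
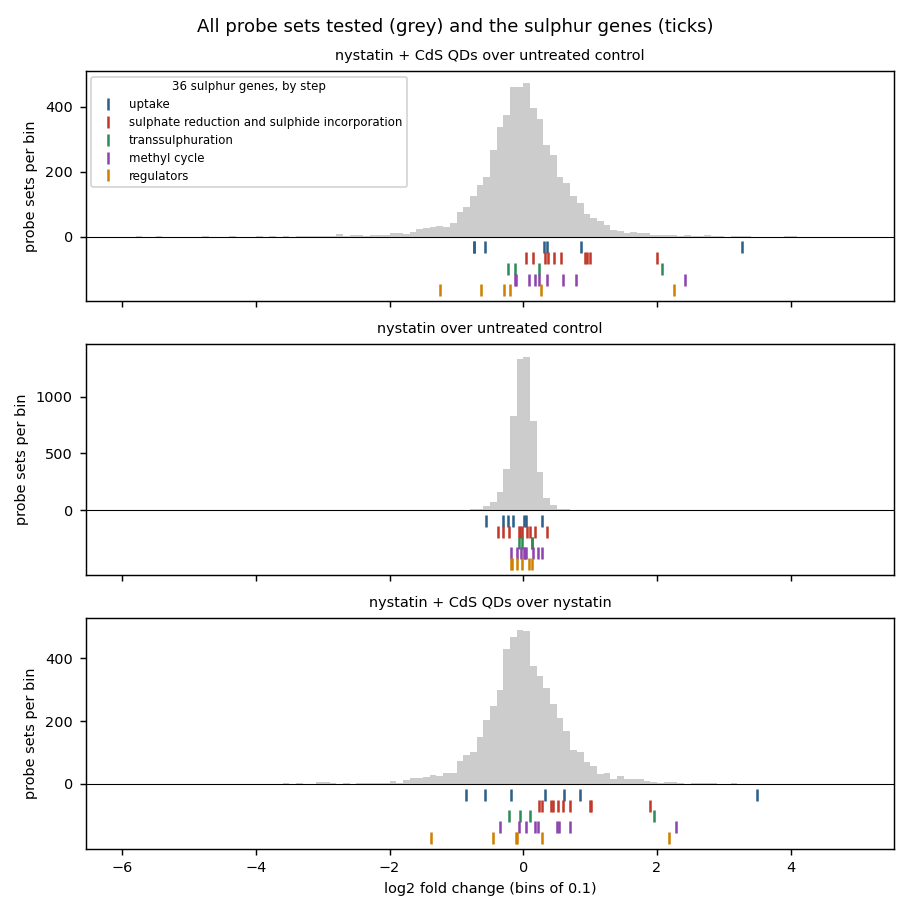
Histograms of the log2 fold change of all 5498 probe sets of *S. cerevisiae* (grey, bins of 0.1, probe sets per bin on the vertical axis) in the 3 comparisons, with the 36 sulphur genes as coloured ticks below, 1 colour a step. With nystatin + CdS QDs a few ticks lie far to the right, led by *SUL2*, and 1 regulator, *CBF1*, lies to the left; with nystatin alone all ticks lie within 0.6 of 0, *MMP1* being the lowest at −0.55.

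The uptake step held the change that was largest among the 36 genes. *SUL2* (YLR092W) and *SUL1* (YBR294W) encode the 2 high-affinity sulphate permeases of yeast. *SUL2* read 7.62 and 7.60 on the nystatin + CdS QDs arrays, 4.14 and 4.11 on the nystatin arrays and 4.36 and 4.33 on the untreated control arrays. The nystatin + CdS QDs arrays stood far above the other 4, which lay within a narrow range. The gene rose 9.61-fold against the untreated control (log2 fold change 3.26, SE 0.042, limma adjusted p = 2.80e-08) and 11.2-fold against nystatin, where only 3 probe sets of 5498 had a higher fold change. On the nystatin and untreated control arrays *SUL2* read within the range of the a-specific genes in this MATα strain, 3.63 to 5.79. Its folds may therefore start near the floor, which was not tested.

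*SUL1* went the other way. It read 5.37 and 5.44 with nystatin + CdS QDs, 6.23 and 6.29 with nystatin and 6.01 and 5.93 in the untreated control, so that the 3 groups did not overlap and the nystatin + CdS QDs arrays were the lowest. The gene fell by 0.57 against the untreated control (SE 0.052, limma adjusted p = 5.80e-05) and by 0.86 against nystatin. Its nystatin + CdS QDs readings lay within the range of the a-specific genes, 3.63 to 5.79, so these falls may end near the floor, which was not tested. Under nystatin alone the pair also took opposite directions, with *SUL1* at 0.28 (adjusted p = 0.0133) and *SUL2* at −0.22 (adjusted p = 0.0133) on the log2 scale. The *SUL2* value compares readings that all lie within the range of the a-specific genes.

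Among the permeases of organic sulphur compounds, 3 rose and 2 fell with nystatin + CdS QDs against the untreated control. Of all probe sets 36.5% rose and 38.9% fell in that comparison. Against nystatin 1 of these genes, *MMP1*, did not pass. *MUP3* (YHL036W), the low-affinity methionine permease, read 6.62 and 6.79 with nystatin + CdS QDs, 5.89 and 5.81 with nystatin and 5.94 and 5.74 in the untreated control. It rose by 0.86 against the untreated control (SE 0.084, limma adjusted p = 8.23e-05), and the nystatin and untreated control arrays overlapped. *MUP1* (YGR055W), the high-affinity methionine permease, rose by less, 0.35 against the untreated control and 0.32 against nystatin.

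*YCT1* (YLL055W), a cysteine transporter, read 7.09 and 6.98 with nystatin + CdS QDs, 7.65 and 7.59 with nystatin and 7.82 and 7.72 in the untreated control, and fell by 0.73 against the untreated control and by 0.58 against nystatin. Its nystatin + CdS QDs arrays were the lowest of the 6.

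Of the 2 neighbouring gene pairs that join a permease to a methyltransferase, 1 moved together and 1 did not. *SAM3* (YPL274W), the S-adenosylmethionine permease, lies next to *SAM4* (YPL273W) on chromosome XVI, and *MMP1* (YLL061W), the S-methylmethionine permease, lies next to *MHT1* (YLL062C) on chromosome XII. Both methyltransferases recycle homocysteine to methionine, Sam4 with S-adenosylmethionine and Mht1 with S-methylmethionine. *SAM3* read 7.59 and 7.64 with nystatin + CdS QDs, 6.997 and 7.013 with nystatin and 7.32 and 7.29 in the untreated control, and rose by 0.31 against the untreated control and 0.61 against nystatin. *SAM4* read 7.62 and 7.66 with nystatin + CdS QDs, 6.92 and 6.97 with nystatin and 7.02 and 7.07 in the untreated control, and rose by 0.59 and 0.69 in the same comparisons. For both genes the nystatin + CdS QDs arrays were the highest and the nystatin arrays the lowest.

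*MMP1* was low under both treatments, at 6.99 and 7.34 with nystatin + CdS QDs, 7.37 and 7.33 with nystatin and 7.96 and 7.85 in the untreated control. It fell by 0.74 with nystatin + CdS QDs (SE 0.11, limma adjusted p = 5.98e-04) and by 0.55 with nystatin (adjusted p = 0.0149), and its nystatin + CdS QDs and nystatin arrays overlapped (−0.18, adjusted p = 0.154). That last comparison rested on 1 array, since without nystatin + CdS QDs replicate 2 it was −0.36 with an adjusted p of 0.00299. Its neighbour *MHT1* read 6.91 and 7.12 with nystatin + CdS QDs, 6.51 and 6.45 with nystatin and 6.61 and 6.72 in the untreated control. It rose by 0.35 against the untreated control and 0.54 against nystatin, so that in the comparison with the untreated control the neighbours *MMP1* and *MHT1* moved in opposite directions.

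No gene of sulphate reduction and sulphide incorporation fell with nystatin + CdS QDs. Of the 10, 8 rose against the untreated control and 2 did not pass. Against nystatin all 10 rose. The medians were 0.51 and 0.55 on the log2 scale. At an unadjusted p under 0.05 (limma) 8 were higher and 0 lower than in the untreated control, and 10 higher and 0 lower than with nystatin. The shares of all probe sets by that rule were 37.1% higher and 39.7% lower against the untreated control, and 37.5% higher and 39.2% lower against nystatin. The lowest log2 fold changes of the 10 were 0.03 against the untreated control and 0.24 against nystatin. A fit without moderation of the variance keeps these fold changes, so it could call none of them lower.

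The first 3 enzymes of the step carry sulphate to sulphite. *MET3* (YJR010W) encodes ATP sulphurylase, *MET14* (YKL001C) adenylyl sulphate kinase and *MET16* (YPR167C) the reductase of the activated sulphate. *MET3* read 7.30 and 7.30 with nystatin + CdS QDs, 6.37 and 6.20 with nystatin and 6.29 and 6.31 in the untreated control, and rose 2.002-fold against the untreated control (log2 fold change 1.00, SE 0.060, limma adjusted p = 7.79e-06). *MET16* read 6.92 and 6.89 with nystatin + CdS QDs, 5.84 and 5.98 with nystatin and 5.95 and 6.01 in the untreated control, a rise of 0.93 (SE 0.059, adjusted p = 1.02e-05). In both genes the nystatin and untreated control arrays overlapped and the nystatin + CdS QDs arrays stood above them.

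*MET14* differed from these in the nystatin arrays. It read 8.46 and 8.35 with nystatin + CdS QDs, 7.70 and 7.74 with nystatin and 8.06 and 8.12 in the untreated control. The nystatin arrays were the lowest, and the rise was 0.69 against nystatin and 0.32 against the untreated control. *MET22* (YOL064C), whose product clears the nucleotide left over by the reductase, rose by 0.37 against the untreated control and 0.41 against nystatin.

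Sulphite reductase, which makes sulphide, has 2 kinds of subunit, encoded by *MET5* and *MET10*. *MET5* (YJR137C) read 7.49 and 7.60 with nystatin + CdS QDs, 7.30 and 7.24 with nystatin and 7.09 and 7.09 in the untreated control, and rose by 0.46 against the untreated control and by 0.28 against nystatin. *MET10* (YFR030W) read 8.58 and 8.68 with nystatin + CdS QDs, 8.41 and 8.37 with nystatin and 8.61 and 8.59 in the untreated control, and its nystatin + CdS QDs and untreated control arrays overlapped (0.03, limma adjusted p = 0.575). Against nystatin *MET10* rose by 0.24. The difference between the 2 genes was not tested.

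The enzyme needs the cofactor sirohaem, made by the products of *MET1* (YKR069W) and *MET8* (YBR213W). *MET1* rose by 0.56 against the untreated control and 0.51 against nystatin. *MET8* read 6.40 and 6.61 with nystatin + CdS QDs, 6.09 and 6.03 with nystatin and 6.28 and 6.45 in the untreated control. Its nystatin + CdS QDs and untreated control arrays overlapped (0.14, limma adjusted p = 0.172), although without nystatin + CdS QDs replicate 1 the value was 0.25 with an adjusted p of 0.0333, and it rose by 0.44 against nystatin.

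Sulphide is joined to carbon by Met17, the O-acetylhomoserine sulphydrylase, on the ester that Met2, homoserine O-acetyltransferase, supplies. *MET17* (YLR303W) read 9.90 and 9.94 with nystatin + CdS QDs, 8.01 and 8.02 with nystatin and 7.94 and 7.90 in the untreated control. It rose 4.01-fold against the untreated control (log2 fold change 2.002, SE 0.043, limma adjusted p = 1.24e-07), and the other 2 groups differed by 0.10 (adjusted p = 0.135). *MET2* (YNL277W) read 8.60 and 8.60 with nystatin + CdS QDs, 8.05 and 7.95 with nystatin and 7.66 and 7.63 in the untreated control, and rose by 0.96 against the untreated control. Its nystatin arrays lay between those of the other groups, and *MET2* and *SAM2* were the 2 sulphur genes that rose in all 3 comparisons. They made 5.56% of the sulphur genes, close to the 4.09% of all probe sets that took this course.

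**Figure D3:**
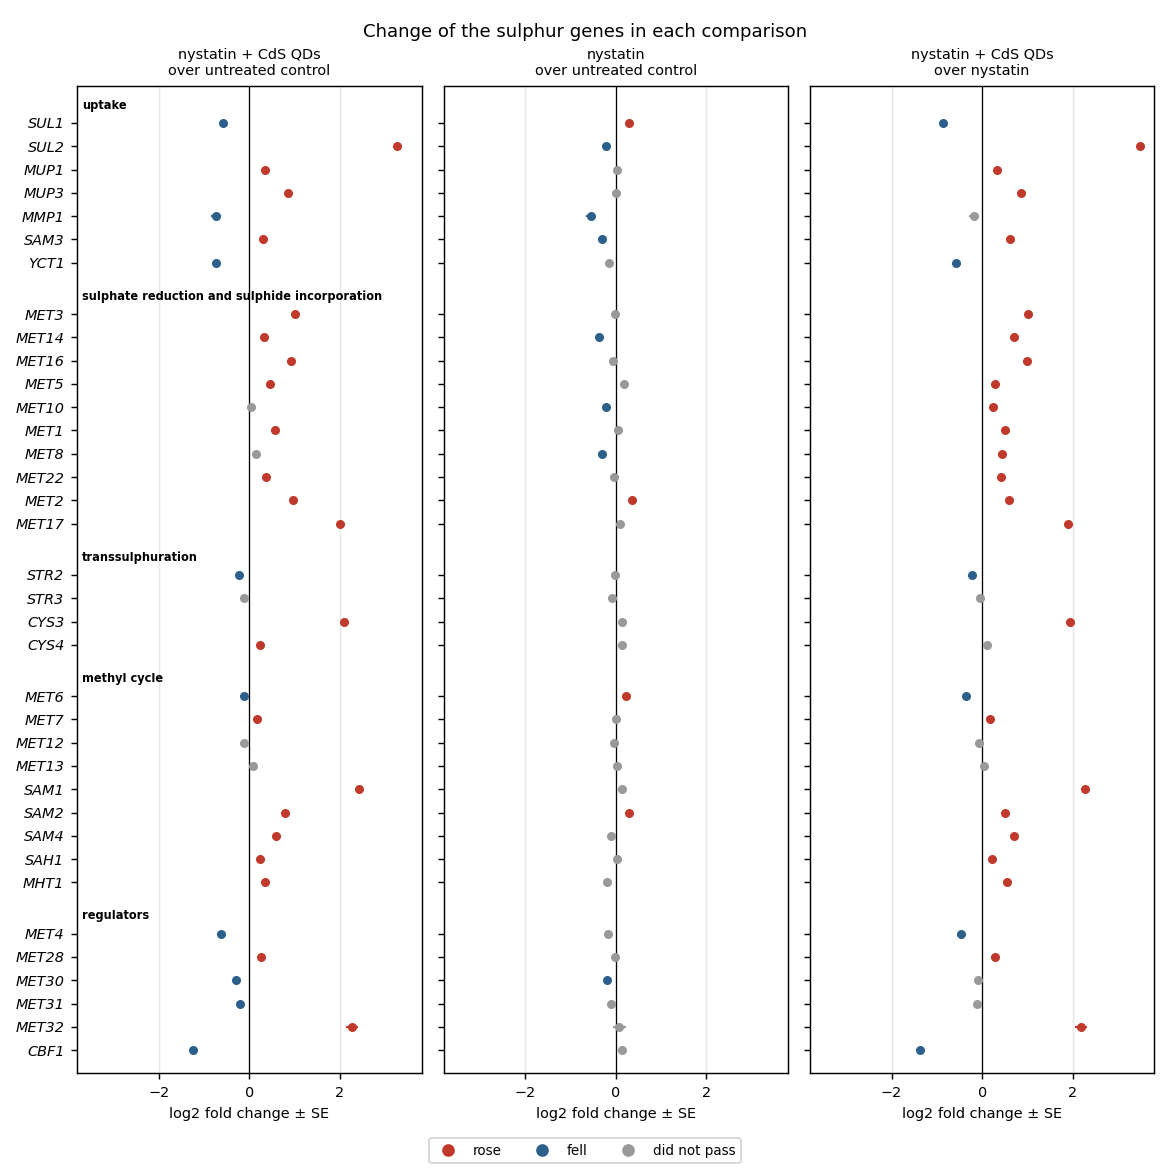
The log2 fold change (horizontal axis) of the 36 sulphur genes, ordered by step, in the 3 comparisons, with bars for 1 SE from limma that are mostly smaller than the points. Red points rose, blue points fell and grey points did not pass an adjusted p under 0.05. The 10 genes of the reduction step all lie to the right of 0 with nystatin + CdS QDs in both outer panels, 2 of them grey against the untreated control, whereas the regulators lie on both sides.

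Transsulphuration runs in both directions in yeast, and the genes of the cysteine direction rose with nystatin + CdS QDs against the untreated control while those of the reverse direction did not. A rise was common, since 36.5% of all probe sets rose in that comparison. Cys4, cystathionine β-synthase, and Cys3, cystathionine γ-lyase, carry sulphur to cysteine. *CYS3* (YAL012W) read 9.78 and 9.82 with nystatin + CdS QDs, 7.87 and 7.83 with nystatin and 7.79 and 7.65 in the untreated control, with the nystatin + CdS QDs arrays far above the rest. It rose 4.22-fold against the untreated control (log2 fold change 2.08, SE 0.058, limma adjusted p = 3.74e-07) and 3.86-fold against nystatin. *CYS4* (YGR155W) read 9.71 and 9.67 with nystatin + CdS QDs, 9.61 and 9.57 with nystatin and 9.45 and 9.46 in the untreated control, a rise of 0.24 against the untreated control and a difference of 0.10 from nystatin that did not pass (adjusted p = 0.0717).

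Str2, cystathionine γ-synthase, and Str3, cystathionine β-lyase, carry sulphur from cysteine to homocysteine. *STR2* (YJR130C) read 8.64 and 8.55 with nystatin + CdS QDs, 8.80 and 8.82 with nystatin and 8.85 and 8.81 in the untreated control, and fell by 0.23 against the untreated control (SE 0.048, limma adjusted p = 0.00352). *STR3* (YGL184C) read 7.50 and 7.63 with nystatin + CdS QDs, 7.63 and 7.60 with nystatin and 7.65 and 7.73 in the untreated control and passed in no comparison. The difference for *STR3* against the untreated control was −0.12 (adjusted p = 0.0852), and without nystatin + CdS QDs replicate 2 it was −0.19 with an adjusted p of 0.0203. With nystatin alone 0 of the 4 genes of the step passed the test, and 1 was higher at an unadjusted p under 0.05 (limma). Of all probe sets 21.8% passed in that comparison, and 18.3% were higher at the unadjusted p.

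In the methyl cycle 6 of 9 genes rose against the untreated control, 1 fell and 2 did not pass, with a median of 0.24. Against nystatin the counts were the same, with a median of 0.22. Of all probe sets 36.5% rose and 38.9% fell in the first comparison, and 36.7% and 38.3% in the second. Among the 7 genes called, 4 changed by less than 0.5 in size against the untreated control and 3 against nystatin. *SAM1* and *SAM2* encode the S-adenosylmethionine synthetases, and *SAM1* had the largest change of the step in both comparisons. *SAM1* (YLR180W) read 8.78 and 8.57 with nystatin + CdS QDs, 6.44 and 6.35 with nystatin and 6.24 and 6.27 in the untreated control. It rose 5.34-fold against the untreated control (log2 fold change 2.42, SE 0.073, limma adjusted p = 4.96e-07) and 4.85-fold against nystatin, well beyond the distance between arrays of a group.

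*SAM2* (YDR502C) read 8.13 and 8.23 with nystatin + CdS QDs, 7.64 and 7.71 with nystatin and 7.41 and 7.37 in the untreated control. The 3 groups were in the same order as for *SAM1*, and the rise was 1.73-fold against the untreated control (log2 fold change 0.79, SE 0.052, limma adjusted p = 1.27e-05). The difference in size between the 2 genes was not tested. Their sequences are closely alike, and each is read by a probe set of the plain kind, without the suffix the array gives to sets that match several genes, as holds for all 36 sulphur genes.

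The genes that make methionine from homocysteine by the folate route moved little. *MET6* (YER091C), methionine synthase, read 8.83 and 8.82 with nystatin + CdS QDs, 9.16 and 9.18 with nystatin and 8.98 and 8.93 in the untreated control. Its nystatin + CdS QDs arrays were the lowest of the 6 and its nystatin arrays the highest. *MET6* fell by 0.35 against nystatin (SE 0.043, limma adjusted p = 2.95e-04), while the fall of 0.13 against the untreated control (adjusted p = 0.0294) was lost whichever of the 6 arrays was left out, with adjusted p between 0.0506 and 0.160. *MET7* (YOR241W), folylpolyglutamate synthetase, rose by 0.18 against the untreated control (adjusted p = 0.0167), a call lost without untreated control replicate 2 (0.111) or nystatin + CdS QDs replicate 2 (0.0648). Its rise of 0.17 against nystatin was lost without nystatin replicate 1 (adjusted p = 0.0735), nystatin replicate 2 (0.0707) or nystatin + CdS QDs replicate 2 (0.0697).

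The methylenetetrahydrofolate reductase genes passed in no comparison. *MET13* (YGL125W) read 7.24 and 7.11 with nystatin + CdS QDs, 7.21 and 7.05 with nystatin and 7.13 and 7.06 in the untreated control, so that all groups overlapped. *MET12* (YPL023C), its isoenzyme, differed by −0.11 between nystatin + CdS QDs and the untreated control (limma adjusted p = 0.0766), and by −0.16 without nystatin + CdS QDs replicate 2 (adjusted p = 0.0266). *SAH1* (YER043C), which splits the S-adenosylhomocysteine left by methylation, read 9.01 and 8.98 with nystatin + CdS QDs, 8.71 and 8.85 with nystatin and 8.76 and 8.76 in the untreated control. *SAH1* rose by 0.24 against the untreated control and 0.22 against nystatin, the second call being lost without nystatin replicate 1 (adjusted p = 0.0548).

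All 6 regulators changed with nystatin + CdS QDs against the untreated control, 2 upward and 4 downward, with a median of −0.25. A call was common here, as 75.4% of all probe sets were called, 36.5% upward and 38.9% downward. Against nystatin 2 rose, 2 fell and 2 did not pass (*MET30* and *MET31*), with a median of −0.10, where 36.7% of all probe sets rose and 38.3% fell. *MET32* (YDR253C), a zinc-finger factor that brings Met4 to its targets, read 6.78 and 6.74 with nystatin + CdS QDs, 4.79 and 4.37 with nystatin and 4.62 and 4.38 in the untreated control. It rose 4.79-fold against the untreated control (log2 fold change 2.26, SE 0.14, limma adjusted p = 8.69e-06) and 4.54-fold against nystatin. Its nystatin arrays were 0.42 apart, which was the widest gap between arrays of 1 group among the 36 genes, and the nystatin and untreated control arrays overlapped. On those arrays *MET32*, like *SUL2*, read within the range of the a-specific genes, so its folds may start near the floor.

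Its paralogue *MET31* (YPL038W) moved slightly the other way, at 6.62 and 6.78 with nystatin + CdS QDs, 6.82 and 6.79 with nystatin and 6.93 and 6.88 in the untreated control. The fall of 0.21 against the untreated control (limma adjusted p = 0.0206) was lost without untreated control replicate 1 (0.109), untreated control replicate 2 (0.0537) or nystatin + CdS QDs replicate 1, where the value was −0.12 (0.0708). Against nystatin the difference was −0.10 (adjusted p = 0.174), and −0.19 without nystatin + CdS QDs replicate 2 (adjusted p = 0.0168).

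*CBF1* (YJR060W) encodes the helix-loop-helix factor that also serves at centromeres. It read 6.77 and 6.72 with nystatin + CdS QDs, 8.12 and 8.13 with nystatin and 7.990 and 7.999 in the untreated control, the nystatin + CdS QDs arrays being far below the other 4. It fell 2.37-fold against the untreated control (log2 fold change −1.25, SE 0.043, limma adjusted p = 7.29e-07) and 2.60-fold against nystatin. Among all 5498 probe sets it stood at rank 194 from the bottom in the first of these comparisons and 135 in the second.

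*MET4* (YNL103W), the activator itself, read 8.53 and 8.42 with nystatin + CdS QDs, 8.98 and 8.89 with nystatin and 9.20 and 9.02 in the untreated control. It fell by 0.63 against the untreated control (SE 0.073, limma adjusted p = 1.84e-04) and by 0.46 against nystatin, with the nystatin + CdS QDs arrays the lowest. *MET28* (YIR017C), the leucine-zipper partner of Met4 and Cbf1, read 7.56 and 7.77 with nystatin + CdS QDs, 7.42 and 7.37 with nystatin and 7.41 and 7.40 in the untreated control. *MET28* rose by 0.26 against the untreated control (adjusted p = 0.0134) and by 0.27 against nystatin (adjusted p = 0.0106), and without nystatin + CdS QDs replicate 2 these values were 0.15 and 0.17. The first call was lost without untreated control replicate 1 (0.0579) or 2 (0.0633), and the second without nystatin replicate 2 (0.0653).

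*MET30* (YIL046W), the F-box subunit that marks Met4 for ubiquitin, read 9.49 and 9.45 with nystatin + CdS QDs, 9.58 and 9.56 with nystatin and 9.75 and 9.76 in the untreated control. It fell by 0.28 with nystatin + CdS QDs (limma adjusted p = 6.62e-04) and by 0.19 with nystatin (adjusted p = 0.0226), each against the untreated control. The difference of −0.09 between the treated groups did not pass (adjusted p = 0.0758). These values are of transcripts, and the ubiquitin control of Met4 acts on the protein.

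Read over the 3 comparisons, the most frequent course, seen in 16 of the 36 genes, was no call with nystatin alone and a rise with nystatin + CdS QDs against both other groups. These were 44.4% of the sulphur genes, and 24.7% of all probe sets took this course. It held for *MUP1*, *MUP3*, *MET3*, *MET16*, *MET5*, *MET1*, *MET22*, *MET17*, *CYS3*, *MET7*, *SAM1*, *SAM4*, *SAH1*, *MHT1*, *MET28* and *MET32*. The mirror course, no call with nystatin alone and a fall against both, held for 4 genes (*YCT1*, *STR2*, *MET4* and *CBF1*), 11.1% of the sulphur genes, against 27.2% of all probe sets. A further 3 genes, *SUL2*, *SAM3* and *MET14*, fell with nystatin and rose with nystatin + CdS QDs against both groups, and *SUL1* and *MET6* did the opposite, courses taken by 3.35% and 2.67% of all probe sets. *MET10* and *MET8* fell with nystatin, rose with nystatin + CdS QDs against nystatin, and did not pass with nystatin + CdS QDs against the untreated control. This course was taken by 1.46% of all probe sets. *MMP1* and *MET30* fell with each treatment against the untreated control, a course of 1.86% of all probe sets. *CYS4* rose and *MET31* fell with nystatin + CdS QDs against the untreated control alone, courses of 2.42% and 2.66%. *STR3*, *MET12* and *MET13* had no call, as held for 15.8% of all probe sets. The comparisons share arrays, so these courses are a description, and they take in the calls with nystatin alone, which did not hold under every alternative.

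Around the pathway, 34 genes of neighbouring reactions were listed, also with earlier results of these data known, and 32 were measured. With nystatin + CdS QDs 9 of the 32 rose against the untreated control, 17 fell and 6 did not pass, with a median of −0.20, against the same 36.5% and 38.9% of all probe sets. Against nystatin 8 rose, 17 fell and 7 did not pass, with a median of −0.17, where 36.7% of all probe sets rose and 38.3% fell. With nystatin alone 3 rose and 4 fell, where 10.4% of all probe sets rose and 11.4% fell. With nystatin + CdS QDs against the untreated control, the genes of other sulphur sources and sulphite export fell in 4 of 5 cases, those of methionine salvage in 4 of 5, those of homoserine supply in 2 of 3 and those of folate one-carbon supply in 3 of 6. Against nystatin these counts were 4, 3, 2 and 3. The groups of reactions are small and falls were common among all probe sets, so the counts by group are a description. Both genes of glutathione synthesis rose against the untreated control and 1 of 2 against nystatin. Of 6 genes of thioredoxin, adenosine recycling and methionine repair, 4 rose and 1 fell against the untreated control, and 3 rose and 2 fell against nystatin. Of 4 partners of Met30 in the ubiquitin ligase, 1 rose and 2 fell in each of these comparisons.

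Of these neighbours 6 moved by 1 log2 unit or more with nystatin + CdS QDs, and 5 of the 6 fell. At the thresholds of the study 4.95% of all probe sets were higher and 5.15% lower against the untreated control. Against nystatin these shares were 4.87% and 4.66%. The list was chosen with earlier results known, so the count is a description. *JLP1*, a dioxygenase that releases sulphite from sulphonates, read 5.31 and 5.25 with nystatin + CdS QDs, 8.50 and 8.40 with nystatin and 8.13 and 8.27 in the untreated control, and fell 7.58-fold against the untreated control (limma adjusted p = 1.24e-07). Its nystatin + CdS QDs readings lay within the range of the a-specific genes, 3.63 to 5.79. The fall of *JLP1* may therefore end near the floor, which was not tested. *SSU1*, the sulphite exporter, read 7.27 and 7.28 with nystatin + CdS QDs, 9.01 and 9.03 with nystatin and 9.34 and 9.35 in the untreated control, and fell 4.19-fold (adjusted p = 1.03e-07). The nystatin + CdS QDs arrays were the lowest for both genes, as they were for *PDC6*, *HOM3* and *ADI1*.

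*PDC6*, a pyruvate decarboxylase isoenzyme poor in sulphur amino acids and known to be used when sulphur is scarce, read 7.37 and 7.41 with nystatin + CdS QDs, 10.75 and 10.75 with nystatin and 9.85 and 9.93 in the untreated control. *PDC6* fell by 2.50 with nystatin + CdS QDs against the untreated control and by 3.36 against nystatin, and it rose by 0.86 with nystatin alone (limma adjusted p = 4.84e-04). *HOM3*, aspartate kinase at the head of homoserine synthesis, read 6.71 and 6.64 with nystatin + CdS QDs, 8.34 and 8.27 with nystatin and 8.17 and 8.23 in the untreated control, and fell 2.88-fold against the untreated control.

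Methionine salvage, which rebuilds methionine from the methylthio group left by polyamine synthesis, gave 1 large change each way. *ADI1*, the acireductone dioxygenase, read 8.71 and 8.79 with nystatin + CdS QDs, 10.17 and 10.23 with nystatin and 10.20 and 10.15 in the untreated control, and fell 2.69-fold against the untreated control. *UTR4*, the enolase-phosphatase that acts just before it, read 8.77 and 8.83 with nystatin + CdS QDs, 7.74 and 7.79 with nystatin and 7.65 and 7.61 in the untreated control, and rose 2.25-fold. For both genes the nystatin and untreated control arrays lay close together and the nystatin + CdS QDs arrays apart.

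**Figure D4:**
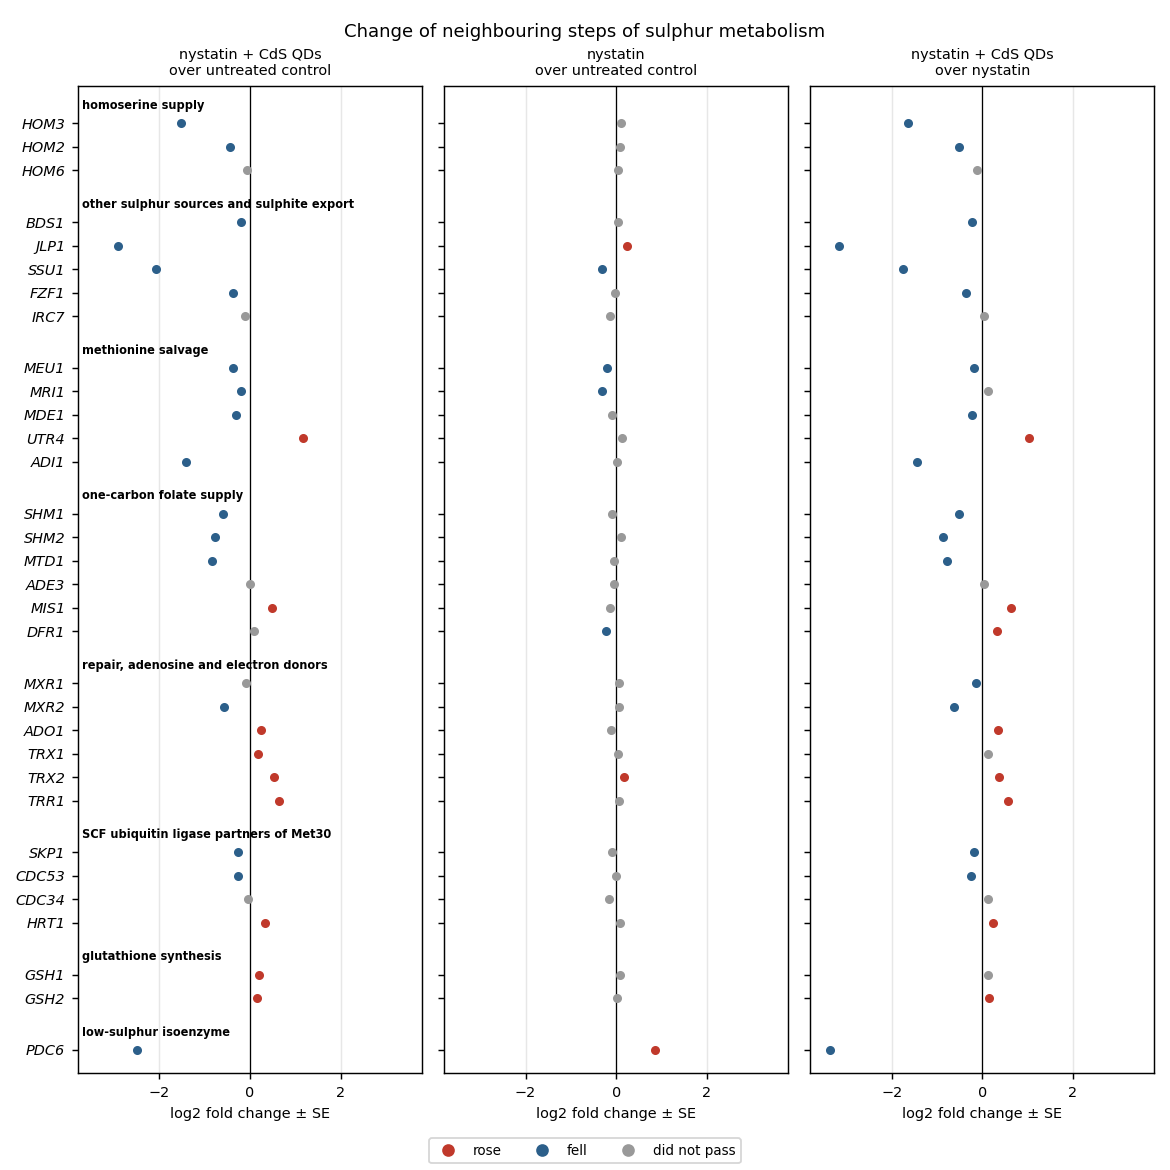
The log2 fold change (horizontal axis) of the 32 measured genes of neighbouring reactions in the 3 comparisons, grouped by reaction, with bars for 1 SE from limma that are mostly smaller than the points. Colours are red for rose, blue for fell and grey for not passed at an adjusted p under 0.05. With nystatin + CdS QDs against the untreated control the largest shifts lie to the left (*JLP1*, *PDC6*, *SSU1*, *HOM3* and *ADI1*), with *UTR4* alone past 1 on the right.

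The arrays report RNA relative to the rest of each sample's RNA, since quantile normalization gave all 6 arrays the same distribution. The values show neither the amount of RNA per cell nor the number of cells.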

How the data were processed

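The deposited values are log2 expression values. The authors summarised perfect-match probe intensities by RMA in Affymetrix Expression Console, as the methods and the submitters' processing notes state. They were used unchanged. Of 10928 probe sets, 5498 matched *S. cerevisiae* genes of the R64 annotation and were tested. Background on an array was the value that 95% of its 1747 *S. pombe* probe sets did not exceed (1.42 to 1.48). One model with 3 group means was fitted to the 6 arrays in limma 3.58.1 (R 4.3.3), with 3 residual and 3.80 prior degrees of freedom, and checked on simulated data. Tests are two-sided with Benjamini-Hochberg adjustment. All 36 sulphur genes are described, and neighbouring genes are named when they pass with a change of 1 log2 unit or more in any comparison. Members and lists were chosen with earlier results of these data known. Alternatives covered moderation, arrays fitted, probe sets tested, normalization, thresholds and each array left out. Gene sequences and *SOA1* and *STR4* were not analysed here.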

Additional observations from a re-analysis of the deposited data

How the results depend on the processing

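Of the calls among the 36 sulphur genes, 26 of 31 held under all 15 alternatives for nystatin + CdS QDs against the untreated control (*MET28*, *MET31*, *MET6*, *MET7* and *MHT1* were lost in at least 1), 26 of 29 against nystatin (*MET28*, *MET7* and *SAH1* were lost), and 0 of 11 for nystatin against the untreated control. *MHT1* was lost only without moderation of the variance (adjusted p = 0.0554). The 15 alternatives were not all distinct. For each comparison, fitting only the 4 arrays compared gave the same values as leaving out either array of the third group. Averaging over probe sets left the values of these genes unchanged, since each has 1 probe set. With 1 log2 unit or more and p under 0.01 as the rule, 6 rose and 1 fell for nystatin + CdS QDs against either group, and 0 rose and 0 fell for nystatin. For nystatin the 4 that rose became 0 and the 7 that fell became 2 without moderation, 0 and 0 when all 10928 probe sets were tested, and 7 rose when only the 4 arrays compared were fitted. Leaving out each array gave 0 to 7 that rose and 0 to 8 that fell for nystatin, 20 to 23 and 7 to 10 for nystatin + CdS QDs against the untreated control, and 21 to 23 and 6 to 8 against nystatin. The cause of these differences was not tested.

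Signs turned only for uncalled values, with 1 array left out. The lowest and highest log2 fold changes over the arrays left out were −0.0187 and 0.0825 for *MET10* with nystatin + CdS QDs against the untreated control, and −0.114 and 0.0130 for *STR3* and −0.0309 and 0.123 for *MET13* against nystatin. For nystatin against the untreated control they were −0.0927 and 0.108 for *MUP3*, −0.0960 and 0.0667 for *MET3*, −0.140 and 0.00276 for *MET16*, −0.0332 and 0.00557 for *STR2*, −0.0396 and 0.0452 for *MET7*, −0.0426 and 0.112 for *MET13*, −0.0496 and 0.0878 for *SAH1*, −0.0435 and 0.0132 for *MET28*, −0.133 and 0.288 for *MET32* and −0.00864 and 0.0540 for *ADI1*. The direction of every called gene was the same under repeated quantile normalization and under centring on the median. Both steps could move the values only a little. The deposited values were already quantile normalized, and the array medians lay between 7.72 and 7.73.

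Replicates of the same number did not deviate together (r of −0.051, 0.0083 and 0.025 between groups), and nothing states that they share a culture. With the replicate number as a block, 22 rose and 9 fell for nystatin + CdS QDs against the untreated control, 23 and 6 against nystatin, and 4 and 5 for nystatin, where *MET10* and *MET8* lost their calls, as *JLP1* did outside the 36.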
